A study of Mus musculus with 12 samples.

Results

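Accessible sites in the mouse fibroblast genome lay singly, in short runs or, for a small share, in dense rows. Among 176680 peaks of accessible chromatin, sorted by position, neighbours were joined into a chain where the gap between the end of one peak and the start of the next was at most 5 kb, and chains of 8 or more peaks were kept. This gave 308 chains that held 2743 peaks, 1.55% of the table, out of 104769 runs of any size, 62823 of which were single peaks. The selection used positions only and no read number. In the cells that also received Prox1, the summed reads were lower than in the GFP cells in 284 of the 308 chains (92.2%). The median log2 ratio was -0.51. Taken singly, 72.3% of all peaks were lower, as were 85.4% of the runs of 4 to 7 peaks in summed reads. After both groups were set to the same median over all peaks, 189 chains were lower. Chains away from coding genes and inside genes such as Jarid2 and Col4a2 were among the lowest, and the 5 highest lay near Lat and over Olig2, Ell, Uncx and Tlx3.

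The measurement was ATAC-seq on primary mouse embryonic fibroblasts (MEFs) from wild-type C57BL/6N embryos of embryonic day 13.5. Cultures of both groups used here were transduced with lentiviral rtTA (FUW-rtTA), a doxycycline-dependent activator. They also received 4in1 (LV.4TF), a lentiviral cassette of transcription factors that reprogrammes fibroblasts towards induced hepatocytes. The control group, 4in1_GFP_OE, also received GFP (tetO-GFP), and the other group, 4in1_Prox1_OE, received FLAG-tagged mouse Prox1 (tetO-FLAG-mmProx1). Both were kept in doxycycline at 2 ug/ml and harvested on day 2, with 3 libraries each. Vectors were delivered by transduction of a primary culture, so a library is a population and not a clone. The labels do not say whether the 3 libraries of a group came from separate embryos or cultures. Libraries of MEFs without 4in1 (groups MEF and Prox1_OE, 3 each, of 12 libraries in 4 groups) were not analysed here.

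The values were group means: for each peak the mean number of normalised reads over the GFP libraries and over the Prox1 libraries. The spread between libraries and their depth are unknown from these values, so no difference below was tested, and each is a description of 2 group means. A log2 ratio is the Prox1 mean over the GFP mean, and a chain's ratio is that of its summed reads. Peaks or chains past a 2-fold ratio are counted as at least 2-fold lower or higher. Over all peaks the median ratio was itself below 0, at -0.42, and values with this shift taken out are given beside the main counts. Counts past 2-fold within classes of peaks or chains are on the deposited scale. In a mixed culture, fewer cells with an accessible site and a less accessible site in each cell cannot be told apart.

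ATAC-seq uses the Tn5 transposase, which inserts sequencing adapters where DNA is not wrapped in nucleosomes, so that read number follows accessibility. Neighbouring accessible elements often lie around genes that define a cell type or are controlled by many enhancers, and stretches of this kind are known as super-enhancers or enhancer clusters. Others lie in gene clusters such as the Hox, histone and protocadherin clusters, where each gene brings its own promoter. In fibroblasts, distal accessible elements often carry sites for AP-1, the Fos and Jun family of leucine-zipper factors, and for TEAD factors of the Hippo pathway. CTCF, a zinc-finger protein, binds insulators and loop anchors and is largely shared between cell types. Prox1 encodes a homeodomain-type transcription factor needed for the development of liver and lymphatic vessels.

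The sequences below are windows from chains of low, high and mixed ratio. The first 6 are the lowest peaks of the 3 chains with the lowest ratios and the highest peaks of the 3 chains with the highest ratios, then comes the strongest peak of the chain with the most peaks, the lowest and the highest peak of the chain with the most peaks past 2-fold in both directions, and the strongest chain peaks with an AP-1 and with a CTCF match. Each is the 201 bp window of the table, plus strand, 5′ to 3′, read from RefSeq GRCm38.p6, which has the coordinates of mm10. Capitals mark matches to AP-1 (TGANTCA, either strand) or to the CTCF core. Windows over untranslated exons were passed over in favour of the next in order.
lowest peak of the Jarid2 chain (chr13:44775828-44776028): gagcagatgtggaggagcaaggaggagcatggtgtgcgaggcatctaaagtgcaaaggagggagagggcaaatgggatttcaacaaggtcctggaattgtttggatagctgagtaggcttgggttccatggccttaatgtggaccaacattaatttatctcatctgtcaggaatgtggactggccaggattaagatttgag
lowest peak of the chain near Icos (chr1:61050440-61050640): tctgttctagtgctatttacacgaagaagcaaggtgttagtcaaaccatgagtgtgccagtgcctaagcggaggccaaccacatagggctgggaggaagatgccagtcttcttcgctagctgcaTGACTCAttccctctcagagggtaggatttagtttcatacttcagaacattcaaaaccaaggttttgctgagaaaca
lowest peak of the chain near Wdr75 (chr1:45839978-45840178): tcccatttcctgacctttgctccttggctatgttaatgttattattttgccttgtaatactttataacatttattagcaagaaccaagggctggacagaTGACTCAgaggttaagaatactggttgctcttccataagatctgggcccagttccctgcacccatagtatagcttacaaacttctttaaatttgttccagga
highest peak of the chain near Lat (chr7:126355967-126356167): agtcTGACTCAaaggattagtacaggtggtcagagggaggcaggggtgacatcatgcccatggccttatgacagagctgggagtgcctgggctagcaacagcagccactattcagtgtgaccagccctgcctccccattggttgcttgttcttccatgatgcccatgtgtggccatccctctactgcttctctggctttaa
highest peak of the Olig2 chain (chr16:91234908-91235108): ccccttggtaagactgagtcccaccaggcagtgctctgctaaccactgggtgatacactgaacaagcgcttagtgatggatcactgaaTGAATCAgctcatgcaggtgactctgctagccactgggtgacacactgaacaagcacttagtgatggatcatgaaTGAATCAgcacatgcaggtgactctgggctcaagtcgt
highest peak of the Ell chain (chr8:70558445-70558645): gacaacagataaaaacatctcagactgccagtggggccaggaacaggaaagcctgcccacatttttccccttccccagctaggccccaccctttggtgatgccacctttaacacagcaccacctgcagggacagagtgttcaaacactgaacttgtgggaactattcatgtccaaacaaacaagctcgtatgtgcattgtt
strongest peak of the Evx2 and HoxD chain (chr2:74667895-74668095): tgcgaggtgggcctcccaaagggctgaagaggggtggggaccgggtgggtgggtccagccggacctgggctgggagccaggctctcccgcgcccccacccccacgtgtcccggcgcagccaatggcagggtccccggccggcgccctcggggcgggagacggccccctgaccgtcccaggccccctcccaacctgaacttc
lowest peak of the 6030452D12Rik and Cdh3 chain (chr8:106527294-106527494): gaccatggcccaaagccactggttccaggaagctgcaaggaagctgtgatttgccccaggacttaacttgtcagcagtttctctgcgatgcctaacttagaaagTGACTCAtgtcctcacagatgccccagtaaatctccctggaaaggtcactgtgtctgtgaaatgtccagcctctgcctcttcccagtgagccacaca
highest peak of the 6030452D12Rik and Cdh3 chain (chr8:106539159-106539359): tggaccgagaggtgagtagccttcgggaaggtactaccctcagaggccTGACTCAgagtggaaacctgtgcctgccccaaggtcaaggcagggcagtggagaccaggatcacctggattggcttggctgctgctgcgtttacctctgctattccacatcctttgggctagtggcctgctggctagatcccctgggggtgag
strongest chain peak with an AP-1 match, Lmna (chr3:88492945-88493145): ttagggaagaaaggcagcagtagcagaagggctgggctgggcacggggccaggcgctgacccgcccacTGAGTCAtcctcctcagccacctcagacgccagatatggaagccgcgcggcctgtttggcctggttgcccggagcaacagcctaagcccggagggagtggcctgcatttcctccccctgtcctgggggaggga
strongest chain peak with a CTCF match, Ldb3 (chr14:34549457-34549657): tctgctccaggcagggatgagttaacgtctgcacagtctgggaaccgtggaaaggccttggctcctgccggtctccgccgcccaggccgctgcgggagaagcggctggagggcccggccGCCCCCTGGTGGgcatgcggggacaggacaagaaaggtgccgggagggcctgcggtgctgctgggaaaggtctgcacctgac

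The lowest peaks of the chains near Icos and near Wdr75 held an AP-1 match, and that of the Jarid2 chain held none. Of the 3 highest peaks, that near Lat held 1 match, that of Olig2 held 2, both with A in the middle, and that of Ell held none. The lowest and the highest peak of the chain over 6030452D12Rik and Cdh3 both held TGACTCA, at -1.59 in an intron with 51.7% GC and at 1.16 in an exon with 59.2% GC. An AP-1 match was therefore present at both ends of the order, and the shares over all members are given below.

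Most chains were close to the smallest size. There were 164 chains of 8 peaks, 75 of 9, 36 of 10, 15 of 11, 11 of 12, 4 of 13, 2 of 14 and 1 of 19. They spanned 8.999 to 42.2 kb with a median of 20.7 kb, and together covered 6624 kb. The median gap between neighbours in a chain was 2467 bp (quartiles 1227 and 3717 bp, from 24 to 4995 bp), against 6314 bp over all neighbouring peaks. Chains lay on each of the 19 autosomes and none lay on X, which had 3220 peaks, or Y, which had 8. The limits of size and gap did not fall at a natural break. The 335 runs of 7 peaks, just below the limit, had a median ratio of -0.42 and a median span of 16.03 kb, against -0.51 and 19.4 kb for the chains of 8. The next peak beyond a chain lay within 10 kb at 383 of 616 chain ends, the nearest at 5005 bp.

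Chain peaks were somewhat stronger than peaks in general and were distributed over the same kinds of site. Their median was 152.9 reads in GFP cells and 104.7 in Prox1 cells, against 121.8 and 88.3 over all peaks. Median GC content was 51.2% against 48.8%. Peaks within 1 kb of a transcription start made up 13.1% of chain peaks and 12.6% of all peaks, introns 52.5% and 45.9%, and intergenic sites 29.3% and 36.4%. The chains therefore leaned towards gene bodies rather than towards promoters. An AP-1 match was found in 26.2% of chain peaks and 28.8% of all peaks, a TEAD match (GGAATG) in 19.4% and 20.1%, a RUNX match (TGTGGT) in 18.3% and 18.5%, an E-box (CANNTG) in 69.2% and 68.9%, and a CTCF match in 3.54% and 3.15%. Motifs were searched on both strands in windows of 201 bp, and matches of different motifs may share bases. No motif was held by a much larger share of chain peaks than of all peaks.

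**Figure D1:**
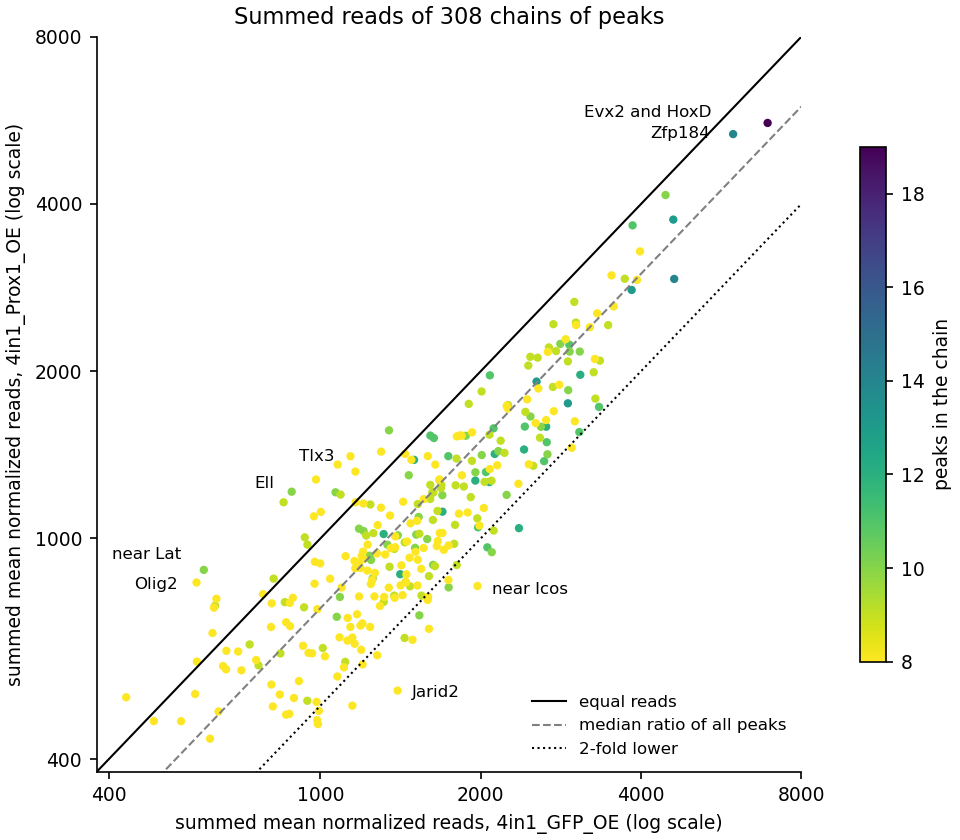
Summed normalised reads of each of the 308 chains in GFP cells (x axis) and Prox1 cells (y axis), both on log scales, with colour giving the number of peaks and lines for equal sums, for the median ratio of all peaks and for a 2-fold lower sum. The 284 chains below the line of equal sums include 95 that lie above the line for the median of all peaks, so that after centring on that median 189 were below 0.

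Summed over all chains, 530614 reads in GFP cells stood against 376313 in Prox1 cells, a log2 ratio of -0.50, while all peaks together had -0.41. Chains took 1.71% of the GFP reads and 1.61% of the Prox1 reads. Chain sums ranged from 432 to 6914 reads in GFP cells, with a median of 1511, and from 436 to 5597 in Prox1 cells, with a median of 1022. The chain ratio ran from -1.39 to 0.54 (quartiles -0.74 and -0.30). As deposited, 284 chains were below 0 and 24 above, after centring on the median of all peaks or on equal sums 189 were below, and after centring on the 10% strongest peaks 243 were below, so the direction of many single chains depends on the scale.

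Past 2-fold, 22 chains (7.14%) were lower and 0 were higher as deposited, while 0 were past 2-fold after centring on the median of all peaks or on equal sums, and 2 were lower after centring on the 10% strongest peaks. Among the 6780 runs of 4 to 7 peaks, 85.4% were below 0, 9.73% were at least 2-fold lower and 0.369% at least 2-fold higher. The share of chains below 0, 92.2%, was thus above that of shorter runs, and the share past 2-fold was below it. The SD of the ratio over units was 0.95 for single peaks, 0.64 for runs of 2 or 3, 0.45 for runs of 4 to 7 and 0.35 for chains, each unit being a sum over its own number of peaks. The 18 chains of 12 or more peaks had a median of -0.61, and all 18 were below 0, from -1.18 to -0.11.

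**Figure D2:**
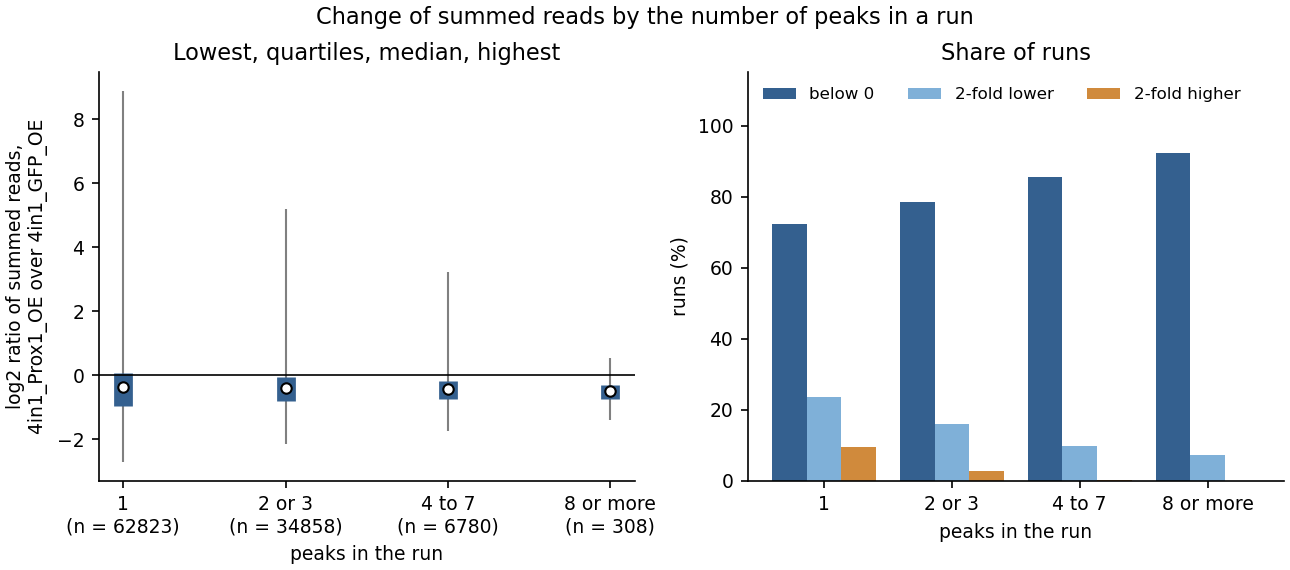
Left, log2 ratio of summed reads for single peaks, runs of 2 or 3, runs of 4 to 7 and chains of 8 or more, with thin lines from lowest to highest, thick lines between quartiles and points at medians. Right, the percent of units below 0, at least 2-fold lower and at least 2-fold higher. The medians go from -0.37 for single peaks to -0.51 for chains while the range narrows, and the median over chains is -0.091 once both groups are centred on all peaks.

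Taken peak by peak, the members differed little from the rest of the table. Of the 2743 chain peaks, 2095 (76.4%) had a lower mean with Prox1, against 72.3% of all peaks. At least 2-fold lower were 717 (26.1%), against 24.4%, and at least 2-fold higher were 135 (4.92%), against 8.33%. The balance of lower and higher chain peaks depends on the scale: centred on the median of all peaks, 54.1% of chain peaks and 50.0% of all peaks were below 0, 254 chain peaks were at least 2-fold lower and 264 at least 2-fold higher, and with equal summed reads the last 2 counts were 257 and 262. The median chain peak was at -0.50 (quartiles -1.02 and -0.03) and the median peak outside chains at -0.42. The upper end was thinner in chains, where 0.583% of peaks were at least 4-fold higher, against 2.22% of all peaks. Chain peaks also held fewer very weak peaks: 4.19% were in the lowest of 10 equal classes of the table by mean reads, and in this class 16.5% of the chain peaks and 29.3% of the peaks outside chains were at least 2-fold higher.

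The difference between chain peaks and other peaks depended on what was held equal. Without strata the difference of medians was -0.086, with the same sign on 14 of 19 chromosomes, and it turned to 0.0047 when chains were formed with gaps of up to 10 kb. Within 10 classes of mean reads it was -0.021 (12 of 19), within 10 classes of GC content -0.13 (16 of 19), and within both -0.080 (10 of 19). Among peaks away from starts it was -0.063. Holding mean reads and GC content equal left the difference close to that without strata. Chromosomes split 10 to 9 in the joint strata, where each had few chain peaks per class, so the split does not settle the direction. The difference does not move when both groups are rescaled.

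The ratios of peaks within one chain differed, as they did in shorter runs. Of the variance of the log2 ratio over chain peaks, 11.5% lay between chains, with an SD of 0.27 between and 0.74 within them. After mean reads and GC content of the peaks were taken out, 5.58% lay between chains. In 48 chains (15.6%) every peak was below 0, and in none was every peak above 0. Both a peak at least 2-fold lower and a peak at least 2-fold higher were held by 82 chains. Of the 6780 runs of 4 to 7 peaks, 28.2% had every peak below 0 and 1046 held both. Their share of variance between runs was likewise 11.5%, or 6.20% after the same step. Noise in the group means and spread within a chain cannot be told apart here. A 2-fold higher peak was found in 101 chains, and 45 had no 2-fold lower peak.

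The correlation between neighbours was weak and was highest at the shortest gaps. Over 2435 pairs of next neighbours, which share their libraries and the GC content of their locus, Pearson's r of the log2 ratios was 0.16. It was 0.088 for peaks 2 apart, 0.12 for peaks 4 apart and 0.028 for peaks 7 apart, and 0.092 for first peaks of successive chains on a chromosome. Ordered by gap, r was 0.36 over 145 pairs at most 500 bp apart, 0.27 from 500 to 1000 bp, 0.21 from 1000 to 2000 bp, 0.10 from 2000 to 3000 bp and 0.090 over 949 pairs from 3000 to 5000 bp. The share of pairs with the same sign did not follow the gap, at 68.3%, 69.3%, 67.8%, 66.1% and 68.6% in the same order, and was 67.1% for first peaks of successive chains.

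Within a chain the ratio went with the strength and kind of peak. The strongest peak of each chain had a median of -0.49, and 3 of 308 were at least 2-fold higher. The weakest had a median of -0.15, and 41 of 308 (13.3%) were at least 2-fold higher. Peaks at the 2 ends of a chain had a median of -0.46 and inner peaks -0.52. Set against the other peaks of their own chain, the strongest peaks were higher in 155 chains and lower in 153, so the top peak did not stand apart from its chain, whereas the weakest were spread towards higher ratios. Among distal peaks, those over 1 kb from a start, the strongest of 3 equal classes by mean reads was lower than the weakest in 201 of 298 chains, with a median difference of -0.34, and a change of scale does not alter this difference.

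Promoters and exons were less lowered than distal sites. The 359 promoter peaks of chains had a median of -0.27 and the 139 exon peaks -0.25, while 1440 intron peaks had -0.57 and 805 intergenic peaks -0.58. At least 2-fold lower were 14.5% of promoter peaks and 31.3% of intergenic peaks, against 8.16% and 27.3% in the same classes outside chains. For exon peaks the shares were 10.8% in chains and 17.9% outside, and for intron peaks 27.6% and 27.2%. In the 167 chains with a promoter peak, the promoters were above the distal peaks of their own chain in 101, with a median difference of 0.16. When centred on the median of all peaks the promoter and exon medians turn to positive values and the intron and intergenic medians stay negative.

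Peaks with an AP-1 match were the lowest class. The 720 chain peaks that held TGANTCA had a median of -0.92, from a median of 185.7 reads in GFP cells to 104.8 in Prox1 cells, and 310 (43.1%) were at least 2-fold lower. The 2023 without a match had a median of -0.35 and 20.1%. The same classes outside chains had medians of -0.82 and -0.29, with 39.7% and 18.2% at least 2-fold lower. Within single chains, AP-1 peaks were below the others in 195 of 266 chains that had both, with a median difference of -0.34, and in 181 of 261 chains when only distal peaks were used. The classes therefore differed inside the same locus as well as across the genome. With 2 or more matches, 75 peaks had a median of -0.99 and 48.0% were at least 2-fold lower. The 588 peaks with TGACTCA or TGAGTCA had -0.93, and the 132 with TGAATCA or TGATTCA alone had -0.83. The medians with a match stay below 0 after centring on the median of all peaks, and those without turn above it.

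The other motif classes were higher than the AP-1 class. The 531 peaks with a TEAD match had a median of -0.81 and 37.7% were at least 2-fold lower, against -0.64 and 32.4% in the same class outside chains. RUNX matches (503 peaks) had -0.59 and E-boxes (1899 peaks) -0.47, both close to the median of all chain peaks. The 97 peaks with a CTCF match had the narrowest quartiles of the motif classes: the median was -0.20, 3 (3.09%) were at least 2-fold lower and 0 at least 2-fold higher, and CTCF peaks outside chains had -0.19 with 2.56% at least 2-fold lower. CTCF peaks were above the other peaks of their chain in 58 of 76 chains, by a median of 0.33, and their median lies above 0 once both groups are centred on all peaks. A match is a string of letters in the window, and binding was not measured here.

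**Figure D3:**
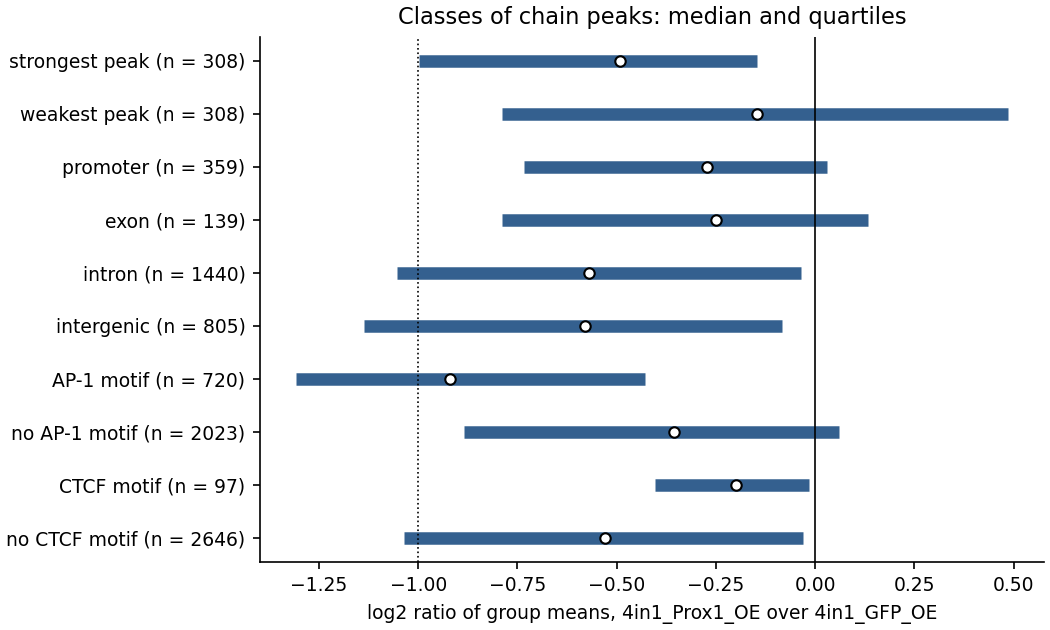
Median log2 ratio (points) and quartiles (lines) of chain peaks by rank of strength in their chain, by place and by motif match, with the number of peaks in each class and a dotted line at a 2-fold lower mean. AP-1 peaks have the lowest median of the motif classes with -0.92 and CTCF peaks the highest with -0.20, which turns positive after centring on the median of all peaks, as does that of each class drawn above -0.42.

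As whole units, chains rich in AP-1 matches and poor in GC were lower. In 49 chains at least 50% of the peaks held an AP-1 match, and their median ratio was -0.73, all 49 were below 0, and 12 were at least 2-fold lower. The other 259 had a median of -0.47, with 10 at least 2-fold lower. The 75 chains of mean GC over 55% had a median of -0.29, with 1 at least 2-fold lower, and the 233 others had -0.60 with 21. By promoters, the 141 chains with no promoter peak had -0.62, the 124 with 1 or 2 had -0.49, and the 43 with 3 or more had -0.30. These properties go together, and their separate parts were not tested. After centring on the median of all peaks, the medians of GC-rich chains and of chains with 3 or more promoters are above 0.

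Across the 308 chains, 7 properties were correlated with the ratio, as descriptions over loci that share the same libraries. Pearson's r was 0.52 (Spearman's rho 0.48) for mean GC, -0.46 (-0.49) for the share of peaks with an AP-1 match, 0.24 (0.24) for the share of promoter peaks and 0.20 (0.18) for peaks per kilobase. It was -0.14 (-0.15) for span, -0.062 (-0.048) for median mean reads and -0.0060 (-0.00089) for the number of peaks. Base composition and AP-1 letters followed the ratio most closely, and the number of peaks in a chain did not follow it.

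**Figure D4:**
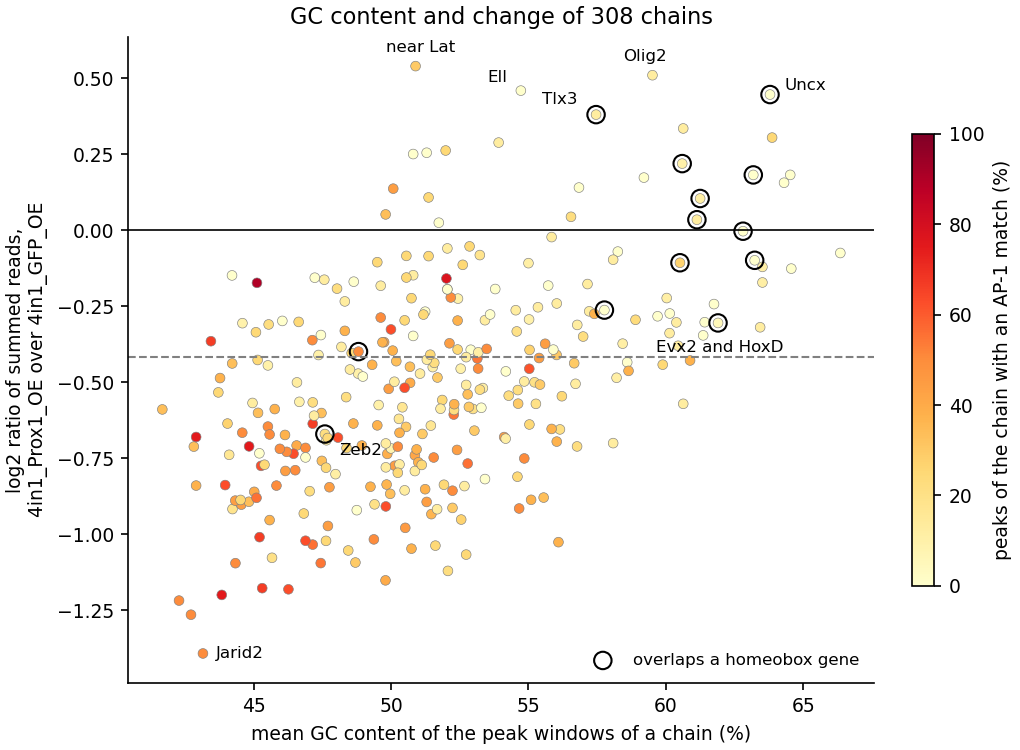
Log2 ratio of each of the 308 chains (y axis) against the mean GC content of its peaks in percent (x axis), with colour giving the percent of its peaks that hold an AP-1 match, open circles for the 13 chains over homeobox genes and a dashed line at the median of all peaks. The ratio is higher in chains of higher GC (r = 0.52), and the chains over homeobox genes lie mostly at the upper right, where 6 are above 0 as deposited.

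The chain with the lowest ratio lay inside Jarid2, which encodes a subunit of the Polycomb repressive complex PRC2 (chromosome 13, 44767287 to 44786578, mm10, 8 peaks). In order along the chain its peaks had 168.9, 186.5, 316.1, 102.2, 98.1, 136.2, 123.1 and 265.1 reads in GFP cells and 53.3, 60.6, 110.4, 32.1, 41.8, 72.8, 69.6 and 91.5 in Prox1 cells. Every peak was lower, 6 of them at least 2-fold, and the sum was 1396 against 532 (-1.39). None was a promoter peak, and 4 held an AP-1 match. The next lowest chain, 48.9 kb from the start of Icos, a T-cell costimulatory receptor gene, was similarly even over its 28.6 kb and overlapped no gene (chromosome 1, 61026814 to 61055456). Its 8 peaks had 133.0, 199.2, 292.0, 363.3, 392.5, 163.0, 157.3 and 271.8 reads in GFP cells and 49.6, 58.2, 109.9, 179.8, 174.8, 62.4, 44.6 and 141.8 in Prox1 cells. Of these, 7 were at least 2-fold lower, and the sum was 1972 against 821 (-1.26).

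The other 3 chains of the 5 lowest were also mostly away from coding genes. A chain 35.4 kb from the start of Wdr75 had 1599 against 687 reads (-1.22), one 189 kb from Mreg had 1148 against 500.0 (-1.20), and one 21.6 kb from Prss2 had 1489 against 657 (-1.18). The last overlapped gene segments of the T-cell receptor beta locus (Trbj2 segments, Trbc2 and Trbv31). In these 3 chains every peak was below 0, and 4, 6 and 5 of the 8 peaks held an AP-1 match. After centring on the median of all peaks the 5 ratios ran from -0.97 to -0.76.

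The 22 chains at least 2-fold lower as deposited are described together here, although none of them is past 2-fold after centring on the median of all peaks or on equal sums. The group was set by the ratio, so its features are a description only. Of its 192 peaks, 120 (62.5%) were at least 2-fold lower and 3 at least 2-fold higher. An AP-1 match was held by 44.8% of the peaks and 7.81% were at promoters. Their median GC was 47.3%, 12 of the 22 overlapped no coding gene, and the median sum was 1592 reads in GFP cells and 751 in Prox1 cells. These chains were thus of ordinary strength in the control, where the other 262 chains between the ends had a median of 1563.

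The 24 chains above 0 are a group also set by the ratio and described without a test. They had lower sums in the control and higher GC content than the 262 chains between the ends. The control sum is the lower part of that ratio, so a low control sum goes with how the group was chosen. Their median sum was 909 reads in GFP cells and 1050 in Prox1 cells, against 1563 and 1061 in those 262, their median GC was 57.2% against 51.1%, 12.1% of their 206 peaks held an AP-1 match, and 19.4% were promoter peaks. At least 2-fold higher were 36 peaks (17.5%), found in 19 of the 24 chains. The highest ratio belonged to a chain 6.61 kb from the start of Lat, which encodes an adaptor of T-cell receptor signalling (chromosome 7, 126339428 to 126362921). Its 10 peaks had 71.6, 114.9, 53.8, 66.5, 55.6, 49.6, 51.2, 49.8, 64.3 and 26.6 reads in GFP cells and 34.8, 143.4, 92.9, 152.8, 69.0, 51.0, 71.1, 126.9, 78.2 and 57.7 in Prox1 cells. The first peak was at -1.04, the other 9 were above 0 and 3 were at least 2-fold higher, and the sum was 604 against 878 (0.54).

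The chain over Olig2, the basic helix-loop-helix regulator of oligodendrocyte and motor neuron fate, was next (chromosome 16, 91222685 to 91235108). Its 8 peaks had 109.2, 78.1, 82.6, 110.7, 67.3, 49.8, 40.1 and 47.3 reads in GFP cells and 93.9, 169.5, 97.1, 156.7, 60.7, 71.2, 43.8 and 140.1 in Prox1 cells. The sum was 585 against 833 (0.51), and the higher reads lay mostly in the second and the last peak, which were at 1.12 and 1.57. Ell, a subunit gene of elongation complexes of RNA polymerase II, held a chain in its introns with 883 against 1214 reads (0.46). Uncx and Tlx3, homeobox genes of the developing skeleton and nervous system, had 853 against 1161 (0.45) and 981 against 1277 (0.38). Each of these 4 chains held both lower and higher peaks, with 2, 4, 2 and 2 peaks below 0.

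**Figure D5:**
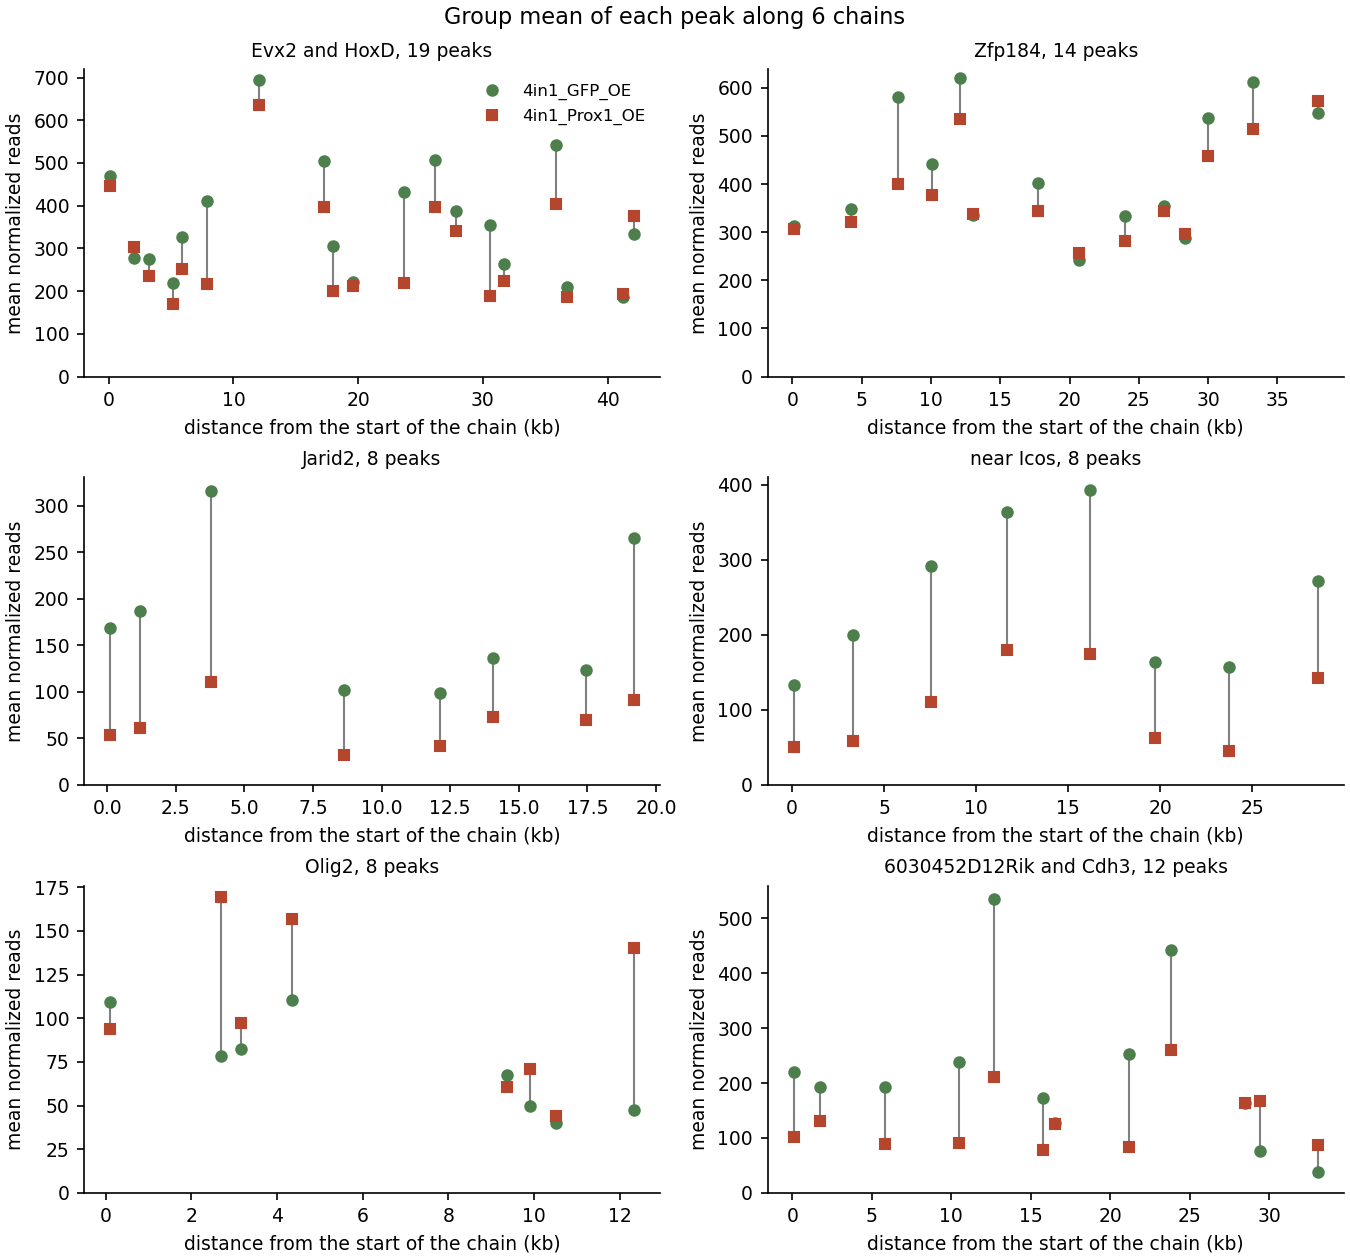
Normalised reads of each peak in GFP cells (circles) and Prox1 cells (squares) against distance from the start of the chain in kb, for the chains over Evx2 and HoxD, up to the start of Zfp184, in Jarid2, near Icos, over Olig2 and over 6030452D12Rik and Cdh3. In Jarid2 and near Icos every peak is lower with Prox1, over Olig2 6 of 8 are higher, and at 6030452D12Rik the peaks are lower up to the last 3; after centring on the median of all peaks the sums of the Evx2 and Zfp184 chains turn to higher.

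The chain with the most peaks ran through the posterior HoxD cluster, from Evx2 over Hoxd13, Hoxd12, Hoxd11 and Hoxd10 to Hoxd9 (chromosome 2, 74655918 to 74698108, 19 peaks in 42.2 kb). Hox genes encode homeodomain factors that set position along the body axis and the limb, and embryonic fibroblasts keep a positional Hox pattern. It also had the largest sum, 6914 reads in GFP cells and 5597 in Prox1 cells (-0.31, or 0.11 after centring on the median of all peaks). Its peaks ranged from 186 to 693 reads in GFP cells and from 170 to 635 in Prox1 cells. None was past 2-fold in either direction, 16 of 19 were below 0, and the lowest, at -0.98, was the eleventh. There were 9 promoter peaks and 1 AP-1 match in the chain.

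The HoxA chain was flatter. It covered Hoxa3, Hoxa5, Hoxa6, Hoxa7, Hoxa9 and Hoxa10 and the readthrough model Gm28308 with 10 peaks in 30.0 kb, 8 of them at promoters (chromosome 6, 52204489 to 52234468). The sum was 4447 against 4151 reads (-0.099, or 0.32 after centring), and the peaks lay between -0.23 and 0.52. It held 0 AP-1 matches. Together the 2 chains covered 11 of 39 Hox genes.

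Other chains with many peaks differed in evenness. The 14 peaks that run up to the start of Zfp184, a zinc-finger gene, were mostly intergenic. They summed to 5956 against 5344 reads (-0.16, or 0.26 after centring), none was past 2-fold, and 0 held an AP-1 match. The densest chain, 8 peaks in 8.999 kb at Abt1, on the same chromosome 13, had 3982 against 3286 reads (-0.28, or 0.14 after centring), again with 0 AP-1 matches and no peak past 2-fold. The chain of Lmna, the gene of nuclear lamins A and C, had 13 peaks, 8 with an AP-1 match, and 3841 against 2800 reads (-0.46). Its 2 first peaks were at -1.61 and -1.65, while the promoter peak printed above had 810 against 602 reads (-0.43). Synpo, the gene of an actin-associated protein, had 14 peaks and 4616 against 2932 reads (-0.66), and E2f6, a repressive E2F factor, had 13 with 2915 against 1751 (-0.74).

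The remaining chains of 12 or 13 peaks that were among the 10 with the most peaks ranged from -0.60 to -0.11. Cdc6 and Rara, which encode a replication licensing factor and a retinoic acid receptor, were at -0.29. Odf3l1 and Cspg4, the second the gene of the NG2 proteoglycan, were at -0.41. Tpd52 was at -0.58 and the gene model Gm37240 at -0.60. Slit1, an axon guidance ligand gene, was at -0.11 with 1499 against 1385 reads, and its median over peaks was 0.0032, so its sign turns with the summary used. After centring on the median of all peaks Slit1, Odf3l1 and Cdc6 are above 0 while Tpd52 and Gm37240 remain below.

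The densest chains differed in ratio. Besides Abt1 and Olig2, the densest chains were at Pax6, with 8 peaks in 9.82 kb and 586 against 600.2 reads (0.03), near Fkbp1a, with 1172 against 730 reads (-0.68), and near Tcf4, with 1240 against 693 (-0.84). Pax6, the homeodomain regulator of eye and forebrain, is here one of the weakest of the named chains. Between these 5 dense chains the ratio ranged from -0.84 to 0.51.

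Some chains held at least 2 peaks past 2-fold in each direction, and the 5 of these with the most peaks are described here. The chain over 6030452D12Rik and Cdh3, the P-cadherin gene, had 12 peaks, 6 at least 2-fold lower and 2 at least 2-fold higher, and its sum was 2654 against 1589 reads (-0.74). Peak 5 had 535 reads in GFP cells and 212 in Prox1 cells, peak 9 had 442.3 and 259.5, and its last 2 had 76.7 and 38.8 in GFP cells and 167 and 86.6 in Prox1 cells. The higher peaks were thus the 2 weakest in the control and lay side by side at one end. Cubn, the gene of the endocytic receptor cubilin, had 5 lower and 2 higher (-0.71), Sidt1 had 3 and 2 (-0.37), Nsmce2, a SUMO ligase gene of the SMC5/6 complex, had 3 and 2 (-0.17) with an AP-1 match in 9 of its 10 peaks, and Neurl3 had 2 and 2 (-0.23). Centred on the median of all peaks, Sidt1, Nsmce2 and Neurl3 turn to above 0.

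Single members reached further than any chain. The lowest member lay in a chain whose nearest coding start is that of Zfp703, and was 37232 bp from the nearest start of any gene. It had 256.6 reads in GFP cells and 58.3 in Prox1 cells (-2.14). Peaks near Wdr75 (-2.12), in Trpm6 (-2.08), in Parva (-2.02) and by Mt4 (-2.01) followed. The highest lay in an intron of Tm4sf1, a tetraspanin-like surface protein gene, with 18.1 against 169.7 reads (3.23), followed by Trim71 (2.94), Eml2 (2.81), near Cdc7 (2.78) and Nsmce2 (2.56). The 5 highest all started from 17.1 to 31.1 reads in GFP cells, and the 5 lowest from 139 to 516. These 10 were picked by their values and are given as a description.

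Of the 308 chains, 242 overlapped at least 1 protein-coding gene and 120 lay wholly inside one. There were 187 with 1 gene, 55 with 2 or more, and 66 with none, the last a median of 46.3 kb from the nearest coding start. The median ratio was -0.68 without a gene, -0.52 with 1, -0.39 with 2 or 3 and -0.31 in the 5 chains with 4 or more, the last 2 above 0 after centring on the median of all peaks. In all, chains overlapped 337 of 21951 coding genes (1.54%), and 173 started inside a chain. A start inside the chain was found in 121 chains, while 38 consisted of intergenic peaks only. E2f6 and Vezt, an adherens junction gene, were each overlapped by 2 chains, at -0.74 and -0.37 for the first and -0.79 and -0.91 for the second. Gm20388 was overlapped by 3, but it is a model of 4435 kb that reads through many genes.

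Chains over genes of the fibroblast matrix and mesenchyme were below 0 as deposited, as were 92.2% of all chains. Of 24 matrix genes, 3 were overlapped: Col3a1, a fibrillar collagen of soft tissue, with 1534 against 1019 reads (-0.59), and the 2 basement membrane collagens Col4a1, with 2631 against 1377 (-0.93), and Col4a2, with 1590 against 775 (-1.04). The Col4a1 and Col4a2 chains are neighbours around a shared promoter region but contain no promoter peak. Of 32 mesenchymal transcription factors, 5 were overlapped, among them Nfib at -0.92, Zeb2 at -0.67, Foxc1 at -0.32 and Meis2 at -0.26, and Foxc1 and Meis2 are above 0 after centring on the median of all peaks. Tead1, which encodes a DNA-binding partner of YAP, was at -0.89 with 2510 against 1351 reads (1 of 16 Hippo genes), and Ltbp1, which encodes a carrier of latent TGF-beta, at -0.92 with 1977 against 1047 (1 of 20 TGF-beta genes).

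Liver genes lay outside the chains. Of 18 hepatocyte transcription factors and 19 hepatocyte product genes, 0 were overlapped, and of 12 AP-1 subunit genes 0. Of 23 genes of the actin cytoskeleton and smooth muscle 1 was overlapped, Lmna, whose product belongs to the nuclear lamina rather than to actin, and of 24 regulators of other fates 1, Pax6. With 1.54% of all coding genes overlapped, lists of this size would hold few members in any case, and the 0 counts do not set these lists apart.

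Homeobox genes were overlapped more often. This list, 210 genes by symbol, was drawn up after the values had been seen. Of these, 23 (10.95%) were overlapped by 13 chains, and outside the Hox clusters 12 of 171 (7.02%). The 13 chains had a median ratio of -0.0034 and 6 were above 0, while the 295 others had -0.53 and 18 (6.10%) were above 0. Among chains of mean GC over 55% the medians were 0.03 for the 11 with and -0.33 for the 64 without a homeobox gene. The highest after Uncx and Tlx3 were Nkx2-3 with 1345 against 1565 reads (0.22), Pou3f3 with 1163 against 1319 (0.18) and Lhx3 with 934 against 1004 (0.10). Lhx5 (-0.0034), Dlx4 (-0.11), Meis2 and the 2 Hox chains were below 0 as deposited and above it after centring, and Zeb2 was below 0 on both scales. The homeobox chains were thus mostly at or above the median of all peaks.

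Gene clusters with many short genes formed a few chains, named here after their values were seen. The chain with the most coding genes, 21, lay in the gamma protocadherin cluster. The gene models Gm42416, Gm37013 and Gm37388 are among the 21. It had 9 peaks, 8 of them at promoters, and a ratio of -0.27. A histone chain with Hist1h2bb and 6 other coding genes had 8 peaks and a ratio of -0.42, and another with Hist1h4h and Hist1h3g had 9 and -0.17. Protocadherin genes share their 3′ exons and histone genes have near-identical copies, so reads there may be uncertain. After centring on the median of all peaks the protocadherin chain and the second histone chain are above 0.

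Marker promoters were read as a check of the labelled cells. All 6 fibroblast markers had a promoter peak, with 156 to 688 reads in GFP cells, as did 3 of 4 endothelial markers (304 to 458 reads), 1 of 3 blood markers (437 reads) and 3 of 3 epithelial markers (186 to 226 reads). These ranges overlap, so promoter accessibility did not separate the cell types. From GFP to Prox1 cells the endothelial genes had 304 and 101 (Pecam1), 458 and 447 (Kdr) and 362 and 226 reads (Tek), and the epithelial genes 194 and 389 (Epcam), 186 and 203 (Cdh1) and 226 and 133 (Krt8), with no common direction in the second list. Of 3 hepatocyte markers, 0 had one on day 2. None of these peaks lay in a chain, and the part of cells other than fibroblasts in the chain values was not tested. The 3 peaks over coding exons of Prox1, the sequence that the Prox1 vector carries, were at 7.23 to 8.90 and lay outside all chains. The part of vector reads elsewhere was not tested.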

How the data were processed

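ATAC-seq was done on 12 libraries in 4 groups, and the 6 libraries of 4in1_GFP_OE and 4in1_Prox1_OE entered the table used. Per the submitters' processing notes and the study's methods, reads were trimmed (Trimmomatic 0.38), aligned to mm10 (Bowtie2 2.3.4.3), filtered (SAMtools 1.10, Picard 2.18.16, bedtools 2.27.1), corrected for the insertion bias of Tn5, used to call peaks and counted with DiffBind 3.4.11. The methods name MACS2 2.1.2 as the peak caller and the study's reporting form names another, so the caller is uncertain here. Quality control used FastQC 0.11.8, deepTools 3.1.3 and MultiQC 1.6. The deposited table gives, as log2 values made by the authors, the mean normalised reads of each peak over both groups and in each group. It has no value per library, so depth, SD and replicate error are unknown, and no test was run. The table's columns of the authors' own comparison (fold change, p-value and adjusted p) and 2 further files, lists of peaks chosen by that comparison, were not used. Since peaks were called from these libraries, a site enters the table only where it was accessible enough to be called.

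Log2 values were turned into reads, chains were formed as described (gap at most 5 kb, 8 or more peaks) and reads were summed per chain (pandas 2.3.3 and numpy 2.4.6 in Python 3.11.15, with scipy 1.17.1 and, for plots, matplotlib 3.10.9). All windows but 8 of the table were 201 bp wide. Genes came from GENCODE M21 basic and sequence from RefSeq GRCm38.p6, a C57BL/6J genome, while the cells were C57BL/6N. A promoter peak lay within 1 kb of a start. The steps were tested on simulated data. Named chains were the 10 with the most peaks, the 5 lowest and 5 highest ratios, the 5 densest, the 5 first by the smaller of their counts of 2-fold lower and 2-fold higher peaks (ties to chains with more peaks, then longer ones), and those over listed genes, 1 of which is not reported here. The members, lists and rules were chosen with earlier results of these data known. Alternatives changed the scale, gap, chain size, fold, strength filter and gene overlap.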

Additional observations from a re-analysis of the deposited data

How the results depend on the processing

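Both the scale and the limits that define a chain moved values. Centred on the median of all peaks, on equal summed reads and on the 10% strongest peaks, the median log2 ratio of chain peaks was -0.085, -0.089 and -0.24, that of chains -0.091, -0.096 and -0.25, the share of chains below 0 was 61.4%, 61.4% and 78.9%, and 0, 0 and 2 chains were at least 2-fold lower. The sign turned for 13 of 40 named chains on the first scale and for 5 on the third. With gaps of at most 2 kb there were 0 chains, 0 chain peaks, 0 chains at least 2-fold lower and 0 genes, since the longest runs had 6 peaks. With gaps of at most 10 kb there were 4609 chains with 55688 peaks and 6314 genes, medians of -0.41 over peaks and -0.44 over chains, and 130 chains at least 2-fold lower, and the difference of chain peaks from other peaks changed sign, to 0.0047. With 6 or more peaks there were 1370 chains, 9450 peaks, 1139 genes, a chain median of -0.45, 100 chains at least 2-fold lower, and a difference of AP-1 from other chain peaks of -0.51. With 12 or more there were 18 chains, 231 peaks, 25 genes, a median of -0.61, 100% below 0, 1 at least 2-fold lower, 4.93% of variance between chains and an AP-1 difference of -0.41. Without the 25% weakest peaks there were 157 chains, 1405 peaks and 184 genes, 95.5% were below 0 and 11 at least 2-fold lower. At 1.5-fold 131 chains were lower, against 22 at 2-fold. Among distal peaks only, an alternative chosen after seeing the data, the AP-1 difference was -0.51, against -0.56. Genes with their start inside a chain were 173 and with 50% inside 101. The cause of these moves was not tested beyond what each setting removes or adds. Of 87 values recomputed, 41 stayed within their limits. Limits were 1.5-fold for counts and the variance share, and a 95% interval over peaks or chains for the rest. These intervals take peaks or chains as independent, so staying within them is no measure of replicate error. Some of the 41 could not move, since no chain lay on X or Y and leaving these out kept the same chains.

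No paired analysis was possible because only group means were at hand. For the same reason, leaving out replicates and the replicate block were not run.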
